A study of Homo sapiens with 3 samples.

Results

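The D cyclins, their kinases CDK4 and CDK6, the retinoblastoma protein gene RB1 and 4 genes of inhibitors of cyclin-dependent kinases (CDKs) were examined in PLC-PRF-5, an established human liver hepatoma line. The 10 genes were looked up by symbol in the annotation of the Illumina beadchip. Of the 20046 genes named there, 9 were members, with 15 array probes between them, and CDKN2C, which the annotation used does not list, has no array values here. RNA was taken after 24 h with the solvent DMSO, with the kinase inhibitor sorafenib, or with the sorafenib probe, sorafenib that was modified, by the paper's description, with a photoaffinity group and with an alkyne at its end. Both compounds were used at 10 μM by the sample labels and at 50 μM by the protocol field, so the dose was matched but is not settled. There was 1 array per group. No test between groups can be made, differences are given by their size only, and both compounds are set against the same DMSO array. In the text, "array probe" means a sequence on the chip and "sorafenib probe" means the compound.

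D cyclins are made when growth factors signal to a cell. They bind CDK4 or CDK6, and the active kinase phosphorylates RB1, which then releases the E2F transcription factors that switch on genes for DNA synthesis. INK4 inhibitors (CDKN2A, CDKN2B, CDKN2C) hold CDK4 and CDK6 inactive, whereas p27, the product of CDKN1B, acts mainly on the cyclin E and CDK2 complex. Sorafenib inhibits RAF kinases, which lie on the route from growth factor receptors to CCND1. CDKN2A is often silenced in hepatocellular carcinoma.

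Promoter sequence is shown for CDK4 and CDKN1B, a kinase and an inhibitor whose RNA was measured on all 3 arrays. RefSeq's promoter table (GRCh38.p14) held 14 windows for 8 of the 10 members, and CCND1 and CCND2 were not among them. The 1 window for RB1 lies at a start inside the gene, not at the gene's first base, so the main promoter of RB1 was not searched. Each window used here was the 250 bases before a listed start. The strings searched on both strands were the E-box CACGTG, which the MYC and MAX pair can bind, the box CCAAT, and the E2F strings TTTCCCGC, TTTCGCGC, TTTGCCGC and TTTGGCGC. The CDK4 window lies at chr12:57752311-57752560 on the minus strand, with E-boxes in capitals, and the CDKN1B window at chr12:12717118-12717367 on the plus strand, with CCAAT in capitals, both written 5′ to 3′.
CDK4: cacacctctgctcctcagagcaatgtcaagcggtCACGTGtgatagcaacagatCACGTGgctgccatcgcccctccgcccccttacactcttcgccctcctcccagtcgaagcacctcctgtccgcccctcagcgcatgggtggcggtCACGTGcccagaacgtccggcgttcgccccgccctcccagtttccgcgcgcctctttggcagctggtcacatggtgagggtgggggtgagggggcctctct
CDKN1B: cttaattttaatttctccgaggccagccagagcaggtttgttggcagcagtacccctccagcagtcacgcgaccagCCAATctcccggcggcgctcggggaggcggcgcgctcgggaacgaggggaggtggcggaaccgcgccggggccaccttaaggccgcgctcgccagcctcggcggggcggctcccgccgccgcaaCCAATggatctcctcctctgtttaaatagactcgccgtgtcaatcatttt
The CDK4 window held 3 E-boxes, which began 216, 196 and 101 bases before the start. Of 35116 windows of all genes, 6.34% held at least 1. Among the members CDKN2C also had E-boxes, in 2 of its windows. The CDKN1B window held CCAAT 174 and 50 bases before the start, a string present in 32% of all windows. Among the members CCND3 and CDKN2C also had CCAAT, which was in 4 of the 14 member windows. None of these 14 windows held an E2F string, against 2.79% of all windows, and no match overlapped a different motif. These are matches of letters, and binding was not measured. MYC itself, named outside the rule for named genes and beside CDK4 for this motif, had normalized intensities of 1064 (DMSO), 1146 (sorafenib) and 1131 (sorafenib probe).

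Intensity was measured at 47323 array probes, and an array probe counted as above background if its detection p-value, which sets it against the negative controls of its own array, was under 0.01. By this limit 15268 to 15541 array probes were above background per array. Normalized intensities are those after background correction, an offset of 16 and quantile normalization. The 10396 genes with an array probe above background on at least 1 array are called all genes below. The label of the line was checked against markers. Of 14 hepatocyte and hepatoma markers with an array probe only ALB, APOH and FGA were above background on any array and AFP was not, while the 4 markers of simple epithelium (KRT8, KRT18, EPCAM, CDH1) were above it on all 3. The summed normalized intensity of ALB, APOH and FGA was 135, 113 and 130.2 (DMSO, sorafenib, sorafenib probe). Of these 3 genes 2 were above background on all 3 arrays. The sums include the offset, and their differences between arrays are not interpreted. Most hepatocyte and hepatoma markers were thus not detected, and the name of the line rests on its label. Of markers of other cell types, CD14, CD68, LYZ, COL1A1 and ACTA2 were above background on at least 1 array and PTPRC, CD3E, PECAM1, VWF, CDH5, COL1A2, COL3A1, DCN, LUM and PDGFRB on none. The summed normalized intensity of the 3 leukocyte genes above background was 758, 771 and 718 and that of the 2 such fibroblast and stellate cell genes 300.03, 201.7 and 227.6 (DMSO, sorafenib, sorafenib probe), and their part in the differences below was not tested.

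The machinery of the cyclin D kinases was transcribed in these cells, as far as the chip could measure it. CCND1, CCND3, CDK4, CDK6, RB1 and CDKN1B were above background on all 3 arrays, by 7 array probes. The array probes of CCND2 (2), CDKN2A (3) and CDKN2B (3) were not well above background on any. Levels of different array probes cannot be set against each other, so only the order of the 3 arrays within an array probe is described.

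**Figure D1:**
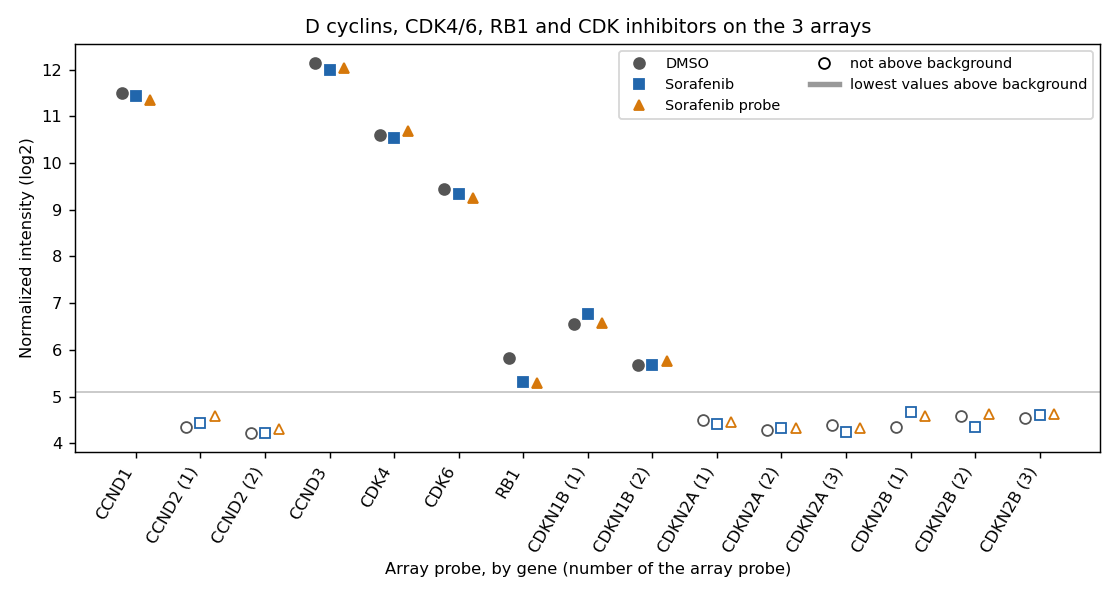
Normalized intensity (log2) of the 15 array probes of the members on the DMSO, sorafenib and sorafenib probe arrays, 1 point per array. Filled points are above background and open points are not, and the grey line marks the lowest values above background on the 3 arrays. The 8 array probes of CCND2, CDKN2A and CDKN2B lie below this line on every array, and levels of different array probes are not comparable.

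With the main processing, no measured member differed between any pair of arrays by as much as 1.5-fold. RB1 passed this limit against DMSO under some other ways of processing, given below. Against DMSO, 0 of 6 were 1.5-fold higher and 0 of 6 were 1.5-fold lower with either compound. Over all genes 2.23% were higher and 2.01% lower by that much with sorafenib, and 2.39% and 2.05% with the sorafenib probe, so that 0 of 6 is close to what these shares give. Between the sorafenib probe and sorafenib the shares over all genes were 0.736% and 0.547%, again with no member. At 2-fold the members' counts were 0 as well, and the shares over all genes, higher and lower, were 0.169% and 0.119% for sorafenib, 0.259% and 0.169% for the sorafenib probe, and 0.0199% and 0.0298% between the compounds. Against DMSO, the 6 members had a median log2 difference of -0.09 for sorafenib and -0.13 for the sorafenib probe, where the medians over all genes were -0.0026 and -0.00032. With sorafenib 5 of the 6 lay below 0, as did 50.5% of all genes, and with the sorafenib probe 4 did, as did 50% of all genes. In RNA of a whole culture, fewer cells with a transcript and less of it per cell cannot be told apart. With a single DMSO array, what both compounds share cannot be told apart from what sets that 1 culture apart.

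As there are no replicate arrays, the spread of genes of like brightness is the nearest guide to how far a single gene can lie from 0. All genes were split by mean intensity into 3 equal groups. The middle 95% of sorafenib minus DMSO ran from -0.44 to 0.47 (log2) in the brightest group, from -0.56 to 0.57 in the middle group and from -0.80 to 0.81 in the dimmest. For the sorafenib probe minus sorafenib these ranges were -0.27 to 0.27, -0.40 to 0.40 and -0.71 to 0.72. Every difference of a measured member lay inside the range of its own group in all 3 comparisons. These ranges hold any responses of genes to the compounds as well as noise between arrays. Lying inside a range therefore does not show that a member was unchanged.

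**Figure D2:**
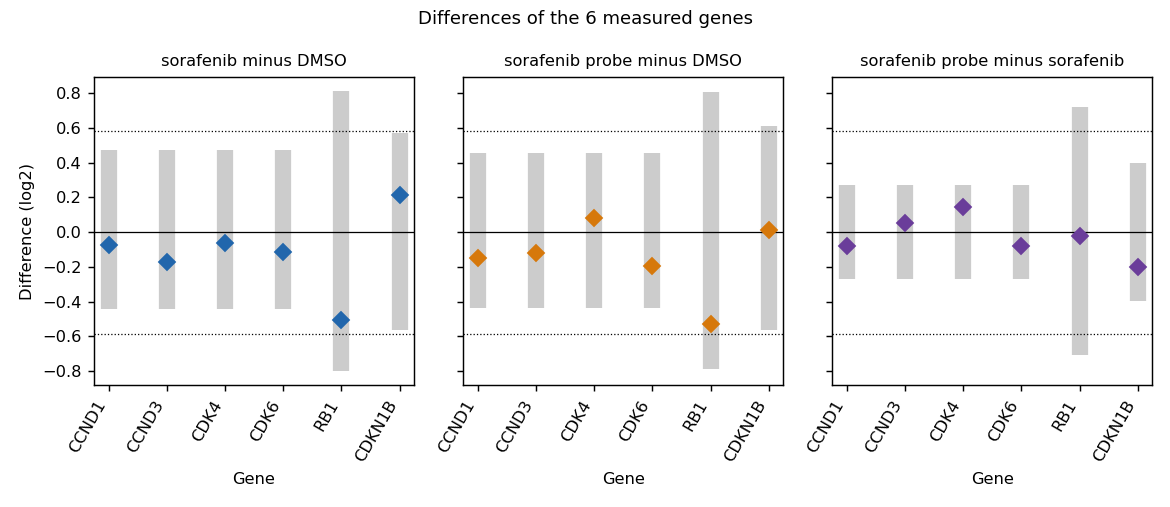
Log2 difference of each measured member (diamonds) for sorafenib minus DMSO, the sorafenib probe minus DMSO and the sorafenib probe minus sorafenib, 1 array per group. Grey bars are the middle 95% of all genes of the same intensity group and dotted lines mark 1.5-fold. RB1 lies lowest against DMSO with both compounds, at -0.51 and -0.53, and every diamond lies within its bar.

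Of the D cyclins, CCND1, the form that growth factor signalling induces in many epithelial cells, had normalized intensities of 2904 (DMSO), 2762 (sorafenib) and 2616 (sorafenib probe). The DMSO array was highest and the sorafenib probe array lowest. The log2 differences from DMSO were -0.07 and -0.15, and 36% and 23.5% of the genes of its intensity group lay at least as low. CCND3, the D cyclin best known from lymphocytes, had 4550 (DMSO), 4043 (sorafenib) and 4190 (sorafenib probe). Here too DMSO was highest, but sorafenib was lowest. Its log2 differences of -0.17 and -0.12 were matched or passed by 20.5% and 27.9% of the genes of its group. For CCND2 the deposited intensities ran from -14.9 to 4.46 over 2 array probes and 3 arrays, with detection p-values from 0.247 to 0.994. A level of CCND2 was thus not detectable on these arrays.

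The kinase genes differed as little. CDK4 had normalized intensities of 1546 (DMSO), 1482 (sorafenib) and 1638 (sorafenib probe). DMSO lay between the compounds, with log2 differences of -0.06 for sorafenib and 0.08 for the sorafenib probe. The sorafenib probe was above sorafenib by 0.14, and 13.1% of the genes of its group lay at least as high. CDK6, which can stand in for CDK4 in many cells, had 701 (DMSO), 647 (sorafenib) and 611 (sorafenib probe). This is the same order as for CCND1, with log2 differences of -0.12 and -0.20, and 28.2% and 17.5% of its group lay at least as low.

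RB1, the substrate of the cyclin D kinases and a brake on E2F, stood farthest from DMSO among the measured members. Its 1 array probe had deposited intensities of 44.1 on the DMSO array, 23.1 after sorafenib and 22.3 after the sorafenib probe, and normalized intensities of 56.3, 39.7 and 39.1. DMSO was high and both compounds were low, by 1.42-fold for sorafenib and 1.44-fold for the sorafenib probe (log2 differences -0.51 and -0.53). The compounds differed from each other by -0.02. RB1 was dim on all arrays. Its detection p-value was 0 for DMSO, 0.00519 after sorafenib and 0.0039 after the sorafenib probe, the last 2 being 4 and 3 steps of 1 in 770. In its intensity group of 3465 genes, 11.1% lay at least as low with sorafenib and 9.87% with the sorafenib probe. Over genes above background on all 3 arrays, the shares in the dimmest of 3 equal groups were 5.69% and 4.73%.
The size of the RB1 difference depended on the background correction. In the authors' quantile normalized table it was -0.75 for sorafenib and -0.78 for the sorafenib probe. There 4.77% and 4.88% of all genes were 1.5-fold lower, and 15.4% and 13.4% of the dimmest group lay at least as low. With an offset of 50 the RB1 difference was -0.29 and -0.30, and 10.1% and 8.34% of the dimmest group lay at least as low. Where the arrays were not normalized to each other it was -0.62 and -0.65. In that case 6.78% and 5.85% of all genes were 1.5-fold lower. Of the dimmest group, 11.1% and 9.61% then lay at least as low as RB1. RB1 was below DMSO with both compounds under every way of processing tried. As RB1 has 1 array probe, the detection limit, the filter and the averaging of array probes could not change its value.

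**Figure D3:**
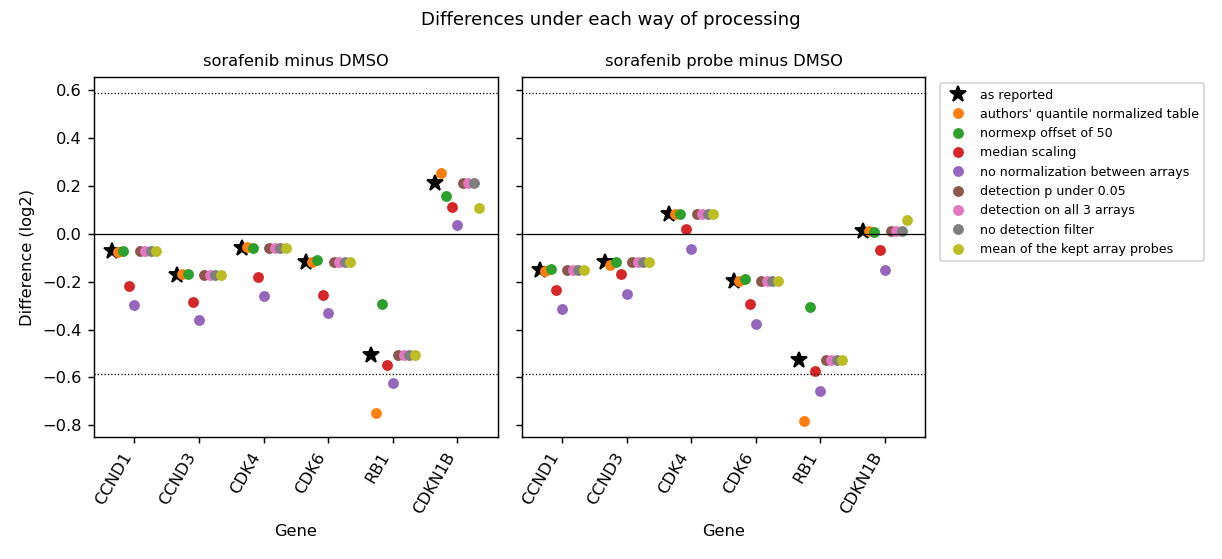
Log2 difference from DMSO of the 6 measured members under 9 ways of processing, sorafenib on the left and the sorafenib probe on the right, with 1.5-fold marked by dotted lines. Black stars are the values as reported. RB1 lies below 0 under all 9 and passes 1.5-fold in the authors' quantile normalized table and where the arrays were not normalized to each other. The detection settings and the averaging of array probes leave the RB1 value unchanged, as it has 1 array probe.

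By the rule for named genes, the 3 genes whose pair of differences from DMSO lay nearest to that of RB1 were RAB27B (Euclidean distance 0.0043), ITGB4 (0.012) and LRRC58 (0.0127). With 2 differences from 3 arrays such a likeness is common. Of 8749 other genes above background on all arrays, 96 lay within 0.1 of RB1.

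Of the inhibitor genes, CDKN1B was the one measured. Its brighter array probe had normalized intensities of 94.6 (DMSO), 109.6 (sorafenib) and 95.3 (sorafenib probe), so that sorafenib alone was high. The log2 difference of sorafenib from DMSO was 0.21, and 22.7% of the middle group lay at least as high. The second array probe did not show this order. It had 50.8, 51.04 and 54.6, with log2 differences of 0.0059 and 0.10, and the sorafenib probe was highest. The pair of array probes thus disagreed in sign for the sorafenib probe minus sorafenib, at -0.20 and 0.10.
The INK4 genes CDKN2A and CDKN2B, which lie next to each other on chromosome 9, gave no signal that could be told from background. CDKN2A codes for p16INK4a and, from another first exon, for the p53 activator p14ARF. Its 3 array probes, 1 of them designed on the p14ARF transcript, had detection p-values from 0.274 to 0.973 over the 3 arrays. The 3 array probes of CDKN2B, which codes for p15INK4b and responds to TGF-beta in epithelial cells, had 0.126 to 0.695. Deposited intensities of the 8 array probes of CCND2, CDKN2A and CDKN2B lay between -14.9 and 7.45, so neither compound brought any of these genes above background. A difference in them was not detectable here, which does not show that the RNA is absent.

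The other genes of the pathway were taken from 9 lists, with 82 genes measured in all. Where 3 normalized intensities are given below, their order is DMSO, sorafenib, sorafenib probe. The median log2 difference of these 82 genes from DMSO was -0.12 with sorafenib and -0.10 with the sorafenib probe, close to the medians of the 6 members. With sorafenib 1 gene was 1.5-fold higher and 3 were lower (1.22% and 3.66%), and with the sorafenib probe 3 were higher and 2 lower (3.66% and 2.44%). Over all genes the shares were 2.23% and 2.01% with sorafenib and 2.39% and 2.05% with the sorafenib probe, so these few genes are near the background. None differed by 1.5-fold between the compounds.

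Downstream of the cyclin D kinases little stood out. Of 16 genes that E2F factors switch on, 11 lay below 0 with sorafenib and 10 with the sorafenib probe (medians -0.11 and -0.09), and none passed 1.5-fold. Of all genes, 50.5% lay below 0 with sorafenib and 50% with the sorafenib probe. PCNA, the sliding clamp of DNA polymerases, had normalized intensities of 2010 (DMSO), 1540 (sorafenib) and 1462 (sorafenib probe), but its second array probe gave the opposite sign, 0.51 and 0.54 against -0.38 and -0.46. The thymidylate synthase gene TYMS had log2 differences of -0.27 and -0.34, and the replication licensing factor gene CDT1 had 0.40 and 0.27. Of 11 relatives of RB1, E2F and DP factors, none passed 1.5-fold. RBL2, the RB relative p130, had 167.5, 137 and 139.5, again with DMSO high. E2F1 had 46.2, 51.2 and 60.7, with the sorafenib probe highest, and its partner gene TFDP2 had the same order (44.8, 51.2 and 61.4). Of the cyclin E and CDK2 list 4 genes were measured, 4 below 0 with sorafenib and 3 with the sorafenib probe. CCNE1, which codes for cyclin E1, had 298.8, 233.6 and 259.8, CCNA2 had log2 differences of -0.11 and -0.14, and CDK2 had -0.19 and -0.10 by its brighter array probe and 0.13 and -0.04 by its second.

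Among other CDK inhibitors, CDKN1A, which codes for p21, had normalized intensities of 2107 (DMSO), 1466 (sorafenib) and 1583 (sorafenib probe), with both compounds below DMSO. Its log2 differences were -0.52 and -0.41. In the brightest group, the range used for the members began at -0.44 against DMSO for each compound. CDKN1A thus lay below this range with sorafenib and inside it with the sorafenib probe, unlike RB1, which lay inside its own. Such a range leaves some genes outside, and the 82 genes as a whole were not set against it. CDKN2D, the INK4 gene of p19INK4d, was above background on all arrays, unlike CDKN2A and CDKN2B, and had log2 differences of -0.13 and -0.12. Of 6 genes of the CDK-activating kinase and of CDK4 folding, 5 lay below 0 with each compound, where 50.5% and 50% of all genes did. CDC37, the chaperone partner that delivers kinases such as CDK4 to HSP90, went the other way with 2746, 3652 and 3373. HSP90AB1 itself had 2113, 1543 and 1458. Its log2 differences of -0.45 and -0.54 lay below the range of the brightest group with both compounds. CDKN1A and HSP90AB1 were named because they lay far from DMSO in their lists, and each has 1 kept array probe. With the sorafenib probe PCNA also lay below the range by its brighter array probe (-0.46), but its second was at 0.54. MNAT1, the assembly factor of the CDK-activating kinase, had log2 differences of -0.36 and -0.35.
Of 10 ubiquitin ligase genes that act on D cyclins or p27, 1 passed 1.5-fold. This was FBXW8, an F-box gene, with 53.1, 44.6 and 33.99, which was 1.56-fold lower with the sorafenib probe. FBXO31 had log2 differences of 0.26 and 0.13, and the 3 array probes of DDB1 disagreed in sign for the sorafenib probe (0.15, 0.50 and -0.47).

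Of the regulators of the CDKN2A-CDKN2B locus 13 genes were measured, and with sorafenib 1 was 1.5-fold higher and 3 lower, with the sorafenib probe 1 and 1. Of all genes, 2.23% were higher and 2.01% lower by that much with sorafenib, and 2.39% and 2.05% with the sorafenib probe. The list was chosen with earlier results of these data known. ID1, an inhibitor of basic helix-loop-helix factors that can repress CDKN2A, had normalized intensities of 1392 (DMSO), 2346 (sorafenib) and 2277 (sorafenib probe). Both compounds were high, 1.69-fold and 1.64-fold above DMSO, and the second array probe gave log2 differences of 1.30 and 1.04. TBX2, a T-box repressor of this locus, had 75.5 with DMSO, was not well above background with sorafenib, and had 42 with the sorafenib probe. It was at least 2.21-fold lower after sorafenib and 1.80-fold lower after the sorafenib probe. Its relative TBX3 and the Polycomb gene EED, both named after their values were seen, were the other genes 1.5-fold lower with sorafenib (1.58-fold and 1.75-fold). With the sorafenib probe they had log2 differences of -0.08 and -0.55. The Polycomb gene CBX7 was not well above background with DMSO and was at least 1.16-fold higher after sorafenib and 1.46-fold higher after the sorafenib probe.
Of 16 transcription factor genes that act on CCND1, 9 lay below 0 with sorafenib and 10 with the sorafenib probe. Of all genes 50.5% and 50% did, so these counts are near the background. FOS and EGR1, not well above background with DMSO, were the 2 genes that passed 1.5-fold, with the sorafenib probe (at least 1.80-fold and 1.65-fold higher), and ETS2 had log2 differences of -0.33 and -0.43. Among 5 factors that act on CDKN1B, FOXO1 had 58.6, 45.6 and 40.5, with DMSO high, FOXO3 had 382, 415 and 446, and MEN1 had log2 differences of -0.39 and -0.05.

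**Figure D4:**
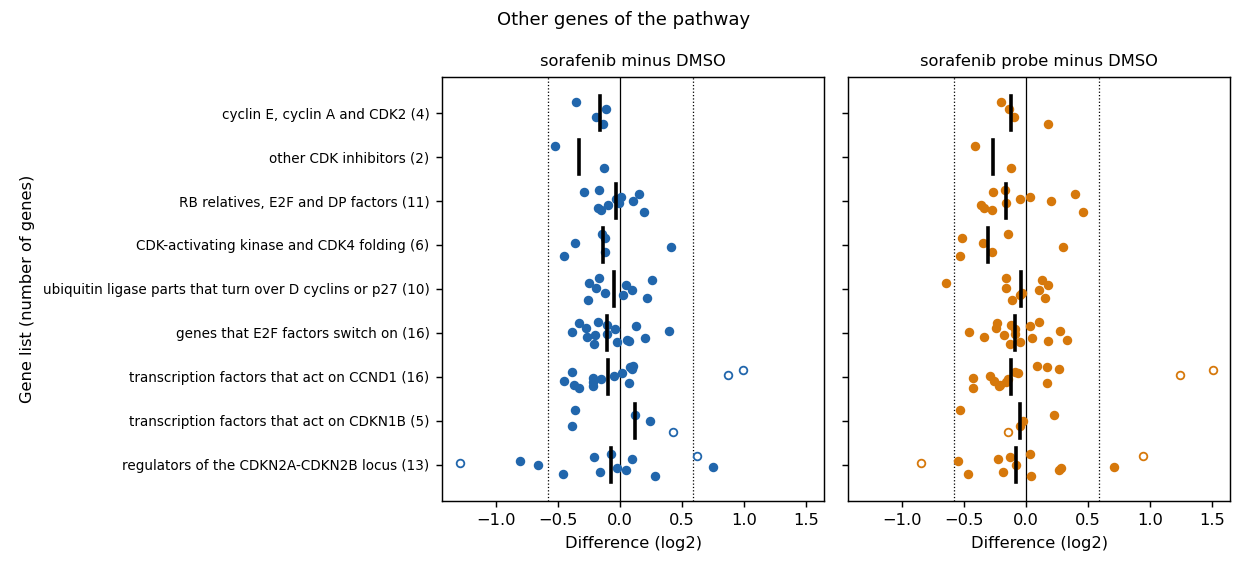
Log2 difference from DMSO of the genes of 9 pathway lists, sorafenib on the left and the sorafenib probe on the right, 1 point per gene and 1 array per group. Black bars are list medians, open points are genes not above background on all 3 arrays, shown at their measured value, and dotted lines mark 1.5-fold. List medians run from -0.33 to 0.12 with sorafenib, and the points past 1.5-fold lie mostly in the lists for CCND1 and for the CDKN2A-CDKN2B locus. The lists were chosen with earlier results of these data known, so their contents were not independent of the values. With sorafenib the open points of FOS, EGR1 and CBX7 pass 1.5-fold, but their bounds are 1.26-fold, 1.28-fold and 1.16-fold.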

How the data were processed

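RNA of PLC-PRF-5 cells was hybridised to 3 beadchips, 1 per group. The table used here, which the authors deposited, holds intensity values after background subtraction and before any normalization between arrays. Another deposited table holds intensity values after quantile normalization with a floor of 1 (98.2% of the sorted values above 1 were equal on the 3 arrays), with a detection p-value for each array probe in steps of 1 in 770. The sources used here do not give the scanner software.

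The normexp model of limma 3.58.1 (R 4.3.3) was fitted by way of the detection p-values (offset 16), followed by quantile normalization and log2, and later steps used Python 3.11.15 with pandas 2.3.3. The filter was a detection p-value under 0.01 on 1 array or more, which 17427 of 47323 array probes passed. Of all array probes, 30113 had 1 gene symbol in the platform annotation, 8 had several and 17202 were not listed. A gene was represented by its brightest kept array probe. For a gene above background on 1 array of a pair, the other side was raised to the lowest value above background on its array if it lay below that, which gives a bound. Differences are on the log2 scale with the offset, which makes those of dim genes smaller. With 1 array per group no p-value is given, and the number of arrays limits the precision. The background correction and normalization were tested on simulated data. Changes were placed there only in array probes far above background, so an array probe as dim as that of RB1 was not covered.

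The members and lists were chosen with earlier results of these data known. Named genes are all members, up to 3 genes per list that lay farthest from DMSO on average, and the 3 genes nearest to the member farthest from DMSO. The alternatives were the authors' quantile normalized table, an offset of 50, median scaling, no normalization between arrays, a detection limit of 0.05, detection on all 3 arrays, every array probe without a filter, averaging the kept array probes of a gene, and a 3-fold threshold. No genomic position of an array probe is given, since the sources used here name no genome build for the array.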

Additional observations from a re-analysis of the deposited data

How the results depend on the processing

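The number of members 1.5-fold apart from DMSO was 0 with each compound and became 1 for both, RB1 in each case, with the authors' quantile normalized table and with no normalization between arrays (in the latter 1.54-fold for sorafenib and 1.57-fold for the sorafenib probe, where 6.78% and 5.85% of all genes were 1.5-fold lower). The medians of the members were near 0 and moved with the processing. Without normalization between arrays they were -0.31 (sorafenib) and -0.28 (sorafenib probe), where the medians of all genes were -0.19 and -0.16, and under median scaling -0.24 and -0.20, where those of all genes were -0.11 and -0.07. With no detection filter, which takes in the 3 genes not well above background, they were -0.07 and -0.04, and the median for the sorafenib probe minus sorafenib turned from -0.05 to 0.02. Without normalization the signs of 2 genes turned for the sorafenib probe, CDK4 to -0.06 and CDKN1B to -0.15, and relative to the median of all genes they were 0.09 and 0.0042. Under median scaling CDKN1B was also below 0, at -0.07, and relative to all genes the values for both were the same as without normalization. With the mean of its 2 array probes CDKN1B had 0.06. No margin from replicates exists, and 0.249, the SD of the difference between the compounds over all genes, describes single genes and not medians. No paired analysis was possible because each group has 1 array. The signal of RB1 over background is small, and the 3 genes not well above background give no difference at all.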
